A study of Mus musculus with 8 samples.

Results

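miR-802 was 1 of 567 mouse microRNAs (miRNAs) on the arrays, and it was followed here through its 2 probes among the 1672 probes for mouse miRNAs. Its members were the spots that the scanner files assign to mmu-miR-802 outside the control spots, 20 spots on each array. The study compared livers of db/db mice with livers of db/+ mice, 4 animals and 4 arrays per strain. The db/db mouse, on the C57BL/KsJ background, carries the db mutation of the leptin receptor gene on both chromosomes and becomes obese and diabetic, and the db/+ control carries 1 copy of the same mutation. The labels name no treatment, and the sources used here give neither the age nor the sex of the animals. Each 1-colour Agilent array received 100 ng of total liver RNA, tagged with the dye Cy3. In whole liver RNA, fewer cells that make a miRNA and less of it per cell cannot be told apart.

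miRNAs are short RNAs that guide Argonaute proteins to messenger RNAs, mostly through the seed near their 5′ end, and lower the stability or translation of those messages. miR-802 is made in the liver, and it has been described as raised in the livers of obese mice. The comparison sets its level in the liver of an obese diabetic mouse beside that of a nondiabetic control.

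The mature and precursor sequences are shown because both probes read the same strand of this short RNA and because its seed is unlike that of other mouse miRNAs. In the lines for the mature arms the seed, bases 2 to 8, is in capitals, and in the hairpin both mature arms are in capitals.
miR-802-5p: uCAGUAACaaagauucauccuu
miR-802-3p: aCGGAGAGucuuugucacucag
Mir802 hairpin: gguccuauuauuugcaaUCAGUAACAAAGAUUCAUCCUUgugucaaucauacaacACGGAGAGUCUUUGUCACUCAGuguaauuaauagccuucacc

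These sequences are those of RefSeq (GRCm38.p6), on the plus strand of chromosome 16. A message paired to the seed of miR-802-5p would hold the letters GUUACUG, the reverse complement of bases 2 to 8. Of 1679 mature mouse miRNA names in that table, 0 others had the same bases 2 to 8, and 0 others had the same bases 2 to 7. In an ungapped comparison, the closest other mature miRNAs, miR-5124b and miR-6353, shared 13 of its 22 bases. The probes of miR-802 thus had no near-identical relative among the listed miRNAs, unlike the probes of families such as let-7.

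On the arrays the miRNA is called miR-802, without an arm. One probe spans 22 bases (chromosome 16, 93369982 to 93370003, mm9 as in the array files) and the other spans 21 bases of the same stretch (93369983 to 93370003), so the shorter one leaves out 1 base at one end. The end at 93370003 differed from the RefSeq end of the 5p arm by 245 bases, the same shift between builds as for miR-99a, let-7c-1*, miR-125b* and miR-155 on this chromosome, and from the end of the 3p arm by 207 bases. The probes were therefore taken to read miR-802-5p, and the 3p arm was not measured. In the RefSeq gene records the locus lies in no other gene. Its nearest neighbours are the noncoding genes 1810053B23Rik and 1700029J03Rik, and the nearest protein-coding genes are Runx1 on one side and Setd4 on the other.

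All 8 arrays lay on 1 slide. Row 1 held the db/db samples and row 2 the db/+ samples, which means that the effects of row and strain cannot be told apart. Arrays were made comparable by a scaling factor, the median signal of the miRNAs found on all arrays. A miRNA is called detected on an array where the scanner software flagged it so. Brightness was very uneven among the controls, where the largest scaling factor was 26.8 times the smallest, against 1.26 times in db/db. All 4 liver markers, miR-122, miR-192, miR-194 and miR-148a, were detected on all 8 arrays. miR-122, the miRNA that dominates hepatocytes, stood at 14.57, 15.99, 15.02 and 15.93 (log2 scaled signal) on db/+ replicates 1 to 4 and from 15.42 to 15.55 in db/db, a difference of 0.10 (limma adjusted p = 0.874). Its highest db/+ values were those of replicates 2 and 4, without which its difference was 0.68 (limma adjusted p = 0.0144). Over all 127 tested miRNAs, 15% passed limma's test of db/db against db/+ at an adjusted p of 0.05. As higher in db/db were called 9.45% of the tested, and as lower 5.51%. All 127 were detected on every db/db array, so none entered the test through db/+ alone, and these shares hold that limit. Over the 89 miRNAs detected on all 8 arrays, 14 passed, 8 as higher and 6 as lower.

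miR-802 was detected on all 4 db/db arrays and on 3 of the 4 db/+ arrays, the exception being db/+ replicate 4. Spots well above background, the stricter flag of the scanner software, numbered 20, 2, 20 and 0 of 20 on db/+ replicates 1 to 4. On db/db replicates 1 to 4 they numbered 15, 20, 20 and 19 of 20. In all, 42 of 80 spots in db/+ and 74 of 80 in db/db carried that flag. The shortfall in db/+ lay on replicates 2 and 4, the arrays with the lowest scaling factors, 0.564 and 0.210.

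**Figure D1:**
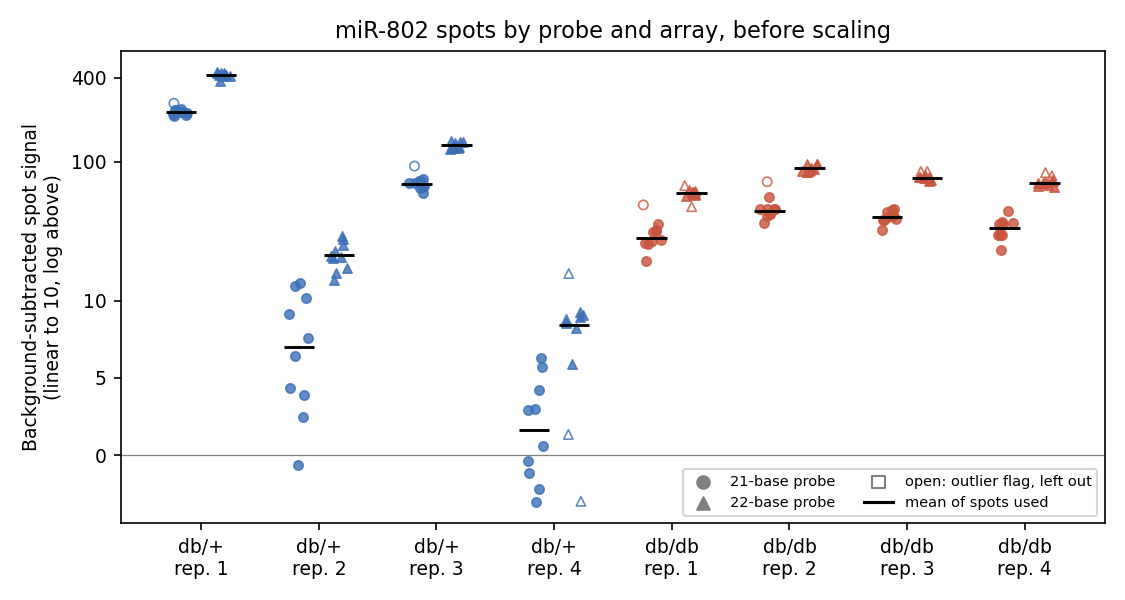
Background-subtracted signal of every miR-802 spot (y axis, linear up to 10 and logarithmic above) on each of the 8 arrays (x axis), before scaling between arrays. Circles are the 21-base probe, triangles the 22-base probe, open symbols spots flagged as outliers and left out, and black bars the means of the spots used. For each probe the means of db/+ replicates 1 and 3 lie above those of all db/db arrays, and the means of db/+ replicates 2 and 4 lie below them.

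Spot by spot, the 22-base probe read 419.8 ± 16.8 (signal, SD over spots of 1 array) on db/+ replicate 1, 21.3 ± 4.96 on replicate 2, 131 ± 7.03 on replicate 3 and 8.39 ± 1.15 on replicate 4. On db/db replicates 1 to 4 it read 59.5, 89.3, 76.3 and 69.8, with spot SDs from 2.00 to 4.79. The db/+ arrays thus lay both above and below all db/db arrays before scaling. On db/+ replicate 4, 3 of the 10 spots of this probe (1.34, 15.7 and -2.98) were flagged as outliers and left out. The SD of 1.15 there is that of the 7 spots kept, so it understates the scatter of all its spots. The 21-base probe read 226 ± 8.81, 6.98 ± 4.545, 68.6 ± 4.83 and 1.60 ± 3.30 on db/+ replicates 1 to 4, and 28.4, 44.4, 40.2 and 33.4 on db/db replicates 1 to 4. On db/+ replicate 4 only 6 of its 10 spots were above 0. Negative control spots, which carry no miRNA target, had an SD between spots of 3.89 to 5.70 on the 8 arrays. The 22-base probe stood above their mean by 83.1 and 30.0 of those SDs on db/+ replicates 1 and 3, by 12.6 to 20.2 in db/db, and by 4.50 and 1.09 on db/+ replicates 2 and 4. The 21-base probe stood at 1.45 SDs on db/+ replicate 2 and, just below the mean of the controls, at -0.11 SDs on db/+ replicate 4. Both probes therefore measured miR-802 clearly on 6 arrays, and on db/+ replicate 4 neither probe differed from the negative controls by much more than the scatter of a single such spot.

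Averaged over spots and probes, the signal of miR-802 before scaling was 323, 14.2, 99.8 and 4.997 on db/+ replicates 1 to 4. In db/db it was 43.9, 66.9, 58.2 and 51.6. The strains overlapped, and the mean log2 signal was 5.28 ± 2.71 (SD, n = 4) in db/+ and 5.77 ± 0.26 in db/db. The difference of 0.49, db/db minus db/+, had a two-sided exact permutation p of 0.771. This difference was smaller than the SD of 2.71 in db/+. Each control array moved it: the difference was 1.51 when replicate 1 was left out, 0.0020 for replicate 2, 0.94 for replicate 3 and -0.50 for replicate 4.

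After each array was divided by its factor, miR-802 was at 57.4, 25.1, 63.4 and 23.8 scaled units on db/+ replicates 1 to 4. In db/db it was at 51.8, 62.8, 58.7 and 48.6. On the log2 scale these are 5.84, 4.65, 5.99 and 4.57 in db/+ and 5.70, 5.97, 5.87 and 5.60 in db/db. The 4 db/db livers were close together. The db/+ arrays fell into a pair at the db/db level, replicates 1 and 3, and a pair about 1 log2 unit below it, replicates 2 and 4. The lower pair are the arrays with the lowest scaling factors. The strains therefore overlapped, whereas they did not overlap for 22.8% of the 127 tested miRNAs. On db/+ replicate 4 the value lay below 4.70, the lowest log2 scaled signal of any detected miRNA on that array, and so was not reliably measured. On db/+ replicate 2 miR-802 was flagged as detected, but only 2 of its 20 spots were well above background.

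**Figure D2:**
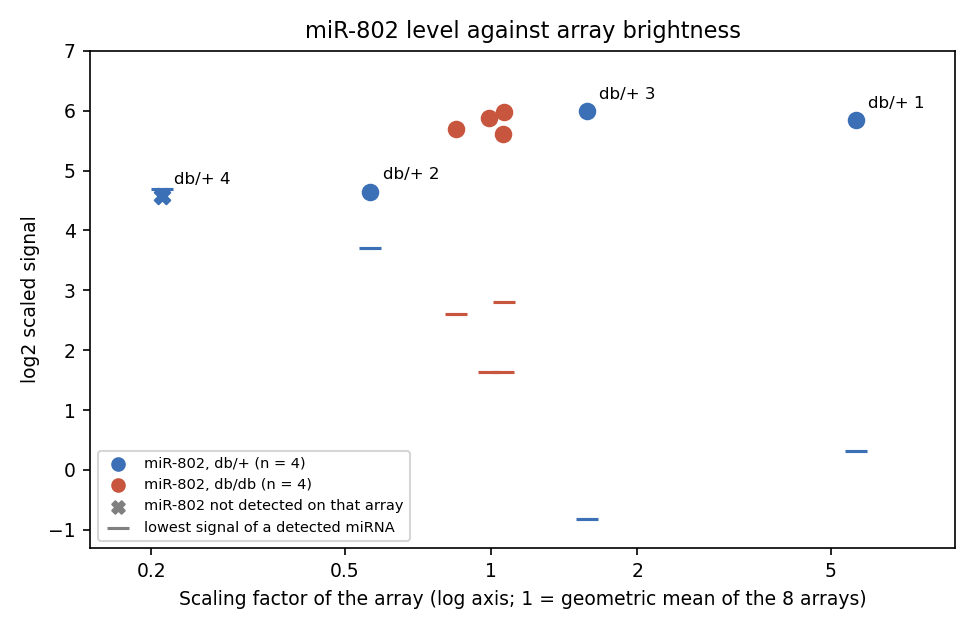
miR-802 level (y axis, log2 scaled signal) against the scaling factor of each array (x axis, logarithmic), blue for db/+ and red for db/db, 1 point per array. Short bars mark the lowest signal of a detected miRNA on the same array, and a cross marks the array on which miR-802 was not detected. The 6 arrays with factors of 0.847 or more lie between 5.60 and 5.99, and the 2 dimmest arrays, both db/+, lie at 4.65 and 4.57.

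The mean level was 5.26 ± 0.76 (log2, SD, n = 4) in db/+ and 5.79 ± 0.17 in db/db. The difference was 0.52 ± 0.33 (SE, log2), with a 95% interval from -0.20 to 1.25, or 1.44-fold with an interval from 0.868 to 2.38-fold. It did not pass (limma adjusted p = 0.321 over the 127 tested miRNAs, unadjusted p = 0.139, rank 54 by p), where it was tested because it was detected on every db/db array, and the two-sided exact permutation test on miR-802 alone gave p = 0.343, where 4 against 4 arrays could reach 0.0286. SAM, the method the series names, did not call it either. The interval includes no difference and also a rise of somewhat more than a doubling, so a p above the threshold does not show that the strains were alike.

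The sign of the difference rested on the 2 dim control arrays. Without db/+ replicates 2 and 4, a check chosen after the values were seen, the difference was -0.13 ± 0.14 (SE) with a 95% interval from -0.46 to 0.21, or 0.915-fold with an interval from 0.725 to 1.16-fold (limma adjusted p = 0.523). Without replicate 2 alone it was 0.32 and without replicate 4 alone 0.29, against 0.72 without replicate 1 and 0.77 without replicate 3 (limma adjusted p from 0.147 to 0.521). In the fits without replicate 1 and without replicate 3 the 95% intervals, from 0.00030 to 1.44 and from 0.079 to 1.45, lay above 0, but neither passed after adjustment (adjusted p = 0.171 and 0.147). With arrays weighted by their own scatter the difference was 0.13 (limma adjusted p = 0.672).

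**Figure D3:**
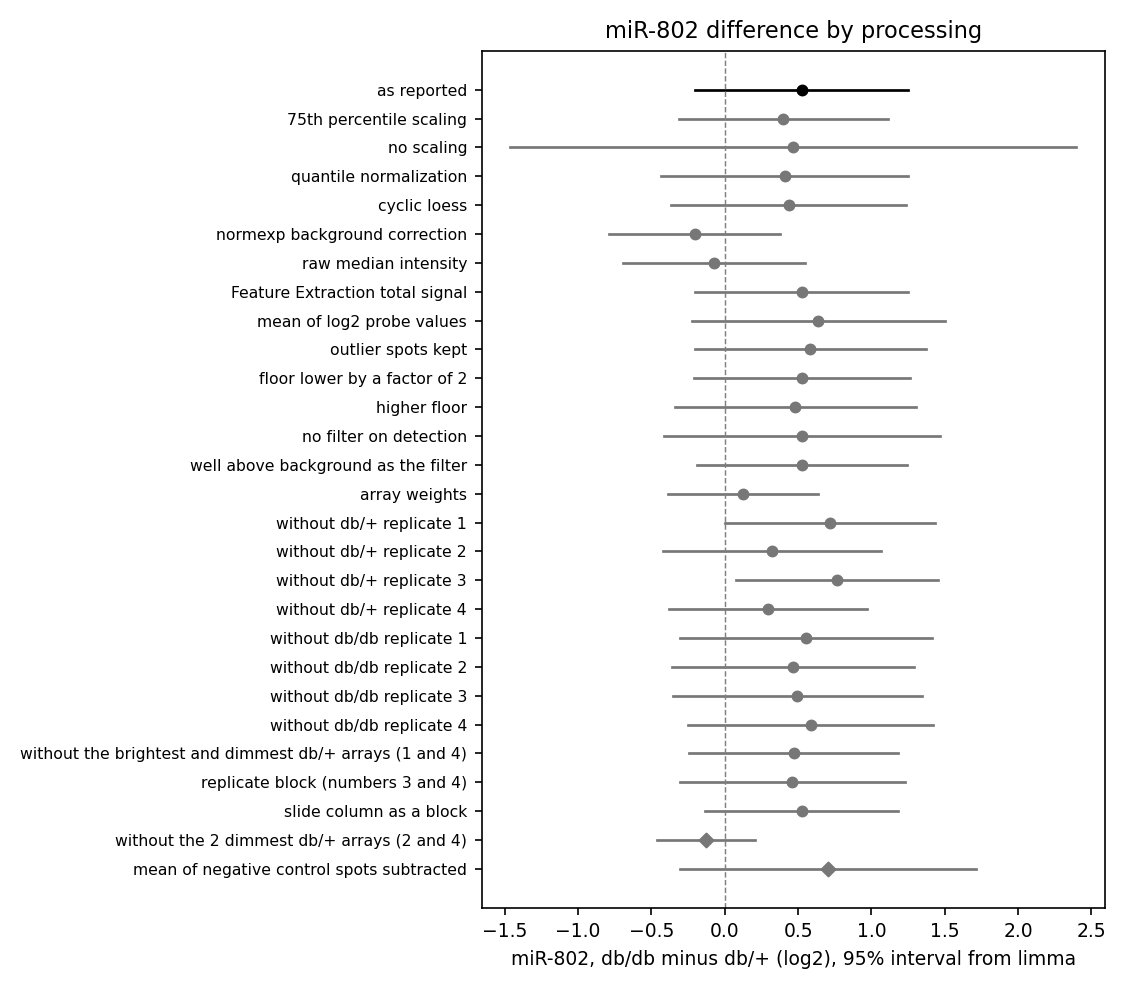
Difference of miR-802 between db/db and db/+ (x axis, log2, point) with limma's 95% interval (line) for the processing as reported (black) and for each alternative (grey); diamonds are alternatives added after the data were seen. Values run from -0.20 (normexp, a model-based background correction) to 0.77 (without db/+ replicate 3), and the intervals that leave out 0 are those in which db/+ replicate 1 or db/+ replicate 3 is dropped.

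Both probes gave a positive difference, and neither passed. For the 22-base probe the level was 6.22, 5.24, 6.38 and 5.32 (log2 scaled signal) on db/+ replicates 1 to 4 and 6.13, 6.39, 6.26 and 6.04 on db/db replicates 1 to 4. Its difference was 0.42 ± 0.28 (SE; limma adjusted p = 0.397 over 271 probes, of which 9.23% passed). For the 21-base probe the level was 5.33, 3.63, 5.45 and 2.93 in db/+ and 5.07, 5.38, 5.34 and 4.97 in db/db. On db/+ replicates 2 and 4, 0 of 10 spots of this probe were well above background, so its values there, and the fitted difference of 0.86 ± 0.58 (SE; limma adjusted p = 0.397), are not reliably measured. With the floor raised to the lowest detected signal of the dimmest array, the difference was 0.15 (limma adjusted p = 0.787) for the 21-base probe and 0.42 (0.494) for the 22-base probe, so the order of the probes turned. Both probes put db/+ replicates 2 and 4 below all other arrays. Without those 2 arrays the differences of the 21-base and the 22-base probe were -0.20 and -0.09.

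The spread of miR-802 was a feature of the control arrays. Its SD of 0.76 in db/+ was exceeded by 9 of the 127 tested miRNAs, whose median SD there was 0.34. Its SD of 0.17 in db/db was exceeded by 68 of them, with a median of 0.18. For 106 of the 127 the SD was larger in db/+ than in db/db, so the direction of this contrast was common, while the size for miR-802 was near the top of the range.

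**Figure D4:**
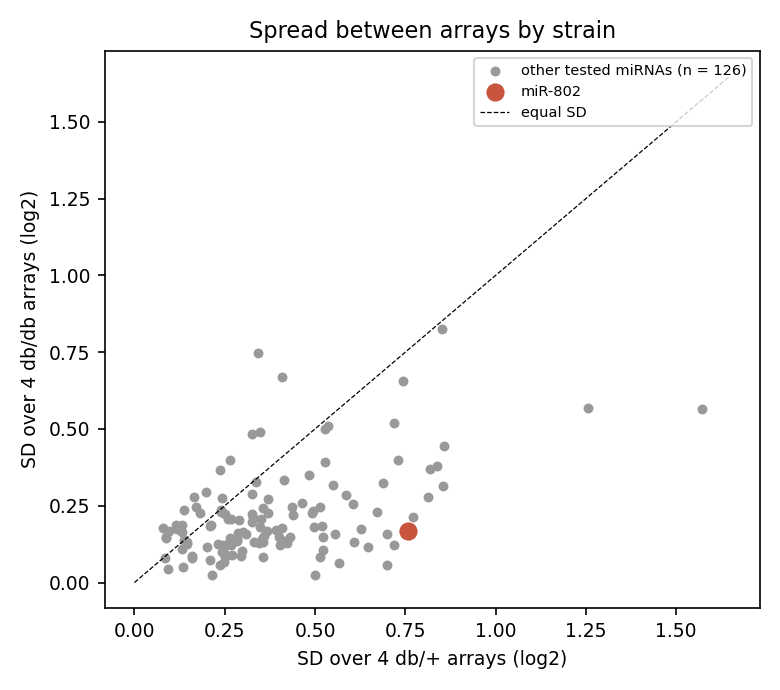
SD over the 4 db/+ arrays (x axis, log2) against SD over the 4 db/db arrays (y axis, log2) for the 127 tested miRNAs, 1 point each, with a dashed line of equal SD. miR-802 (red) stands at 0.76 and 0.17, far to the right of the line.

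Apart from the floor, a ratio within an array does not depend on the scaling factor. miR-802 was therefore also set against the mean of 11 hepatocyte-abundant miRNAs of the same array. On the log2 scale this ratio was -4.97, -6.54, -4.90 and -6.44 on db/+ replicates 1 to 4. In db/db it was -5.28, -5.02, -5.11 and -5.30. The means were -5.71 ± 0.90 (SD, n = 4) and -5.18 ± 0.13, a difference of 0.53 (two-sided exact permutation p = 0.429). Without scaling the difference was 0.51. The same 2 db/+ arrays were low, and without them the difference was -0.25. The mean of the 11 was highest on those 2 arrays, 11.18 and 11.01 (log2 scaled signal), which also lowered their ratios. It was 10.81 and 10.88 on db/+ replicates 1 and 3 and 10.90 to 11.00 in db/db. Of the 11 miRNAs in the denominator, miR-21 fell (log2 fold change -0.78 ± 0.16, SE; limma adjusted p = 0.0085; -0.29 with adjusted p = 0.308 under quantile normalization), and the others did not pass, among them miR-101a (-0.55) and miR-30c (0.37). The median of the 11 was 0.10, against 0.15 over all 127 tested miRNAs; under scaling to the 75th percentile it was -0.028.

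The authors' deposited table gives miR-802 among 139 miRNAs, as a normalized log value whose base is not given in the sources used here. In the authors' deposited table miR-802 stood at 1.45, 1.25, 1.48 and 0.854 on db/+ replicates 1 to 4. In the authors' deposited table it stood at 1.38, 1.44, 1.36 and 1.27 on db/db replicates 1 to 4. The strains overlapped there too, with db/+ replicate 4 the lowest array, and limma on those values gave a difference of 0.10 in the authors' units (adjusted p = 0.715).

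Over the 8 arrays, the level of miR-802 was most like that of miR-30b (Pearson r = 0.94), miR-143 (0.84), miR-221 (0.84), miR-194 (0.82) and miR-203 (0.81), and least like that of miR-342-3p (-0.98) and miR-423-5p (-0.90). The median over the 126 other tested miRNAs was -0.19. These correlations describe 8 points that share the arrays and their brightness. Over the 8 arrays miR-802 itself correlated with the log2 scaling factor at r = 0.73. For the most like miRNAs, in the order above, that r was 0.80, 0.74, 0.46, 0.35 and 0.44. For miR-342-3p it was -0.70 and for miR-423-5p -0.75. miR-143 and miR-221 were each detected on 3 of 4 db/+ arrays. On db/+ replicate 4 miR-143 stood at 4.59, below the lowest detected signal of 4.70 there. miR-342-3p was at 6.48, 7.63, 6.25 and 7.74 (log2 scaled signal) on db/+ replicates 1 to 4 and at 6.32, 6.40, 6.45 and 6.80 in db/db. It was thus high on the same 2 arrays on which miR-802 was low. miR-30b, a member of the miR-30 family abundant in liver, was at 8.73, 8.32, 8.71 and 8.13 on db/+ replicates 1 to 4, again lowest on replicates 2 and 4, while db/db ranged from 8.56 to 8.75. Among these 7 miRNAs, miR-203 passed (log2 fold change 0.94 ± 0.25, SE; limma adjusted p = 0.0281), with db/db values from 6.02 to 6.42 all above its highest db/+ value of 5.69. It was detected on 3 of 4 db/+ arrays and so entered the test through db/db, the strain in which it was high. That call ended under 75th-percentile scaling (adjusted p = 0.0761) and when db/+ replicate 2 (0.0704) or db/db replicate 1, 2, 3 or 4 (0.0513 to 0.0956) was dropped, and with normexp its value was -0.028 (limma adjusted p = 0.955). The call of miR-203 ended too under cyclic loess (limma adjusted p = 0.0517), with the higher floor (0.0527) and with no filter on detection (0.368). Subtracting the negative controls (0.104) or leaving out db/+ replicates 1 and 4 (0.0514) also ended it. So did no scaling, raw median intensity and the authors' deposited values. The other 6 did not pass, with log2 fold changes from -0.54 (miR-342-3p) to 0.33 (miR-143).

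**Figure D5:**
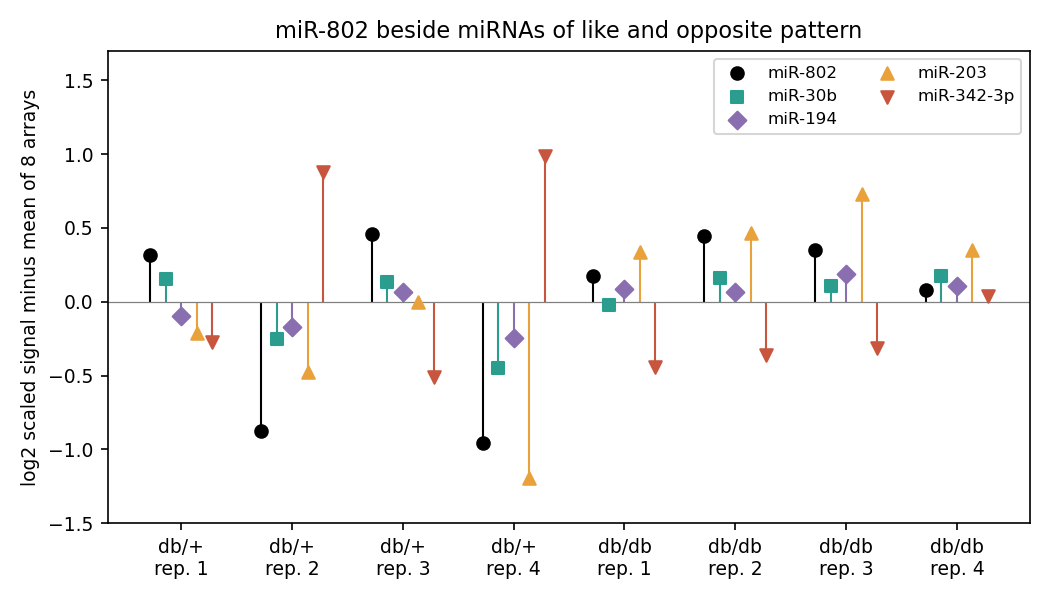
log2 scaled signal minus the mean of the 8 arrays (y axis) for miR-802, 3 miRNAs of like pattern (miR-30b, miR-194 and miR-203) and miR-342-3p, 1 point per array (x axis). On db/+ replicates 2 and 4 the like miRNAs lie below 0 with miR-802, and miR-342-3p lies above 0.

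The mouse locus matches a stretch of human chromosome 21 that also holds miR-99a, let-7c, miR-125b and miR-155, and these were described as a list. They are not the genes next to Mir802, which are those named above, and their distances from it were not measured. Of 6 names of that list on the array, 3 were tested and 1 rose, while 0 fell, where 9.45% of all tested miRNAs were called higher. That one was miR-125b-5p, a miRNA known from blood cell development (log2 fold change 0.54 ± 0.14, SE; limma adjusted p = 0.0281), which kept its sign but did not pass under scaling to the 75th percentile (adjusted p = 0.200), under quantile normalization (0.0778) or under cyclic loess (0.0730). It did not pass either without db/+ replicate 1 or 2 or without db/db replicate 2, 3 or 4 (limma adjusted p from 0.0571 to 0.119). Among other settings, it also failed to pass with normexp (limma adjusted p = 0.175), no filter on detection (0.0649) and slide column as a block (0.0788). let-7c had 0.40 ± 0.18 (adjusted p = 0.182) and miR-99a had 0.21 ± 0.18 (adjusted p = 0.438) in limma. let-7c and miR-125b-5p have further gene copies elsewhere, so their signal does not belong to this stretch alone. miR-155, an miRNA of activated immune cells, was detected on 1 of 4 db/+ arrays and 0 of 4 db/db arrays. The 3 tested members had a median of 0.40, against 0.15 over all tested miRNAs.

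Among 24 miRNAs tied by earlier studies to insulin action in obese liver, 17 were tested, 5 rose and 0 fell. Like the other lists, this one was chosen with earlier results of these data known, so its share is no independent test. miR-200b entered the test through db/db alone, the strain in which it was high. Over all tested miRNAs, 9.45% were called higher and 5.51% lower, and the median was 0.15 against 0.23 for the 17. The untested members could not be called in either direction. Of these, miR-145, miR-181a and miR-33 were detected on 2 db/+ and 0 db/db arrays, miR-96 on 3 and 1, and miR-222 on 2 and 1. miR-200c was detected on 1 and 1, and miR-320 on 2 and 3. The smallest p-values were those of miR-34a, a p53 target that represses Sirt1 (log2 fold change 2.54 ± 0.26, SE; limma adjusted p = 1.7e-04), miR-378, which lies in the metabolic coactivator gene Ppargc1b (1.09 ± 0.20; adjusted p = 0.0063), and miR-200b, an epithelial miRNA (0.81 ± 0.16; adjusted p = 0.0079), which was detected on 3 of 4 db/+ arrays and whose value turned to -0.31 with normexp. The other 2 were miR-103 (0.58) and miR-107 (0.74), known for their effect on insulin sensitivity. Of the 17, 3 rose with 75th-percentile scaling and without db/db replicate 2, 3 or 4, and 0 without scaling. Normexp left 2, with a median of -0.025. Under raw median intensity, and under a block for replicate numbers 3 and 4, 1 rose. The authors' deposited values gave 1 of 18, and the fit with no filter on detection 1 of 24. With quantile normalization, cyclic loess or array weights 5 rose and 2 fell, and without db/+ replicate 4 5 rose and 1 fell. miR-802, with its difference of 0.52 and an SE of 0.33, had a larger SE than these 3, which were 0.26, 0.20 and 0.16.

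Markers of other cell types gave the following background to these whole-liver values. Of 6 leukocyte miRNAs 3 were tested and 2 fell, miR-142-3p (log2 fold change -1.10; limma adjusted p = 0.0164) and miR-223 (-0.74; 0.0434), where 5.51% of all tested miRNAs were called lower. Dropping db/+ replicate 2 or db/db replicate 2 ended both calls, db/db replicate 4 that of miR-142-3p, and db/+ replicate 3 or 4 or db/db replicate 1 or 3 that of miR-223. Both calls, in this order, also ended with normexp (limma adjusted p = 0.0962 and 0.175) and with the higher floor (0.0527 and 0.0801). They ended as well with no filter on detection (0.292 and 0.409), without scaling, with raw median intensity and with the authors' deposited values. miR-146a, also tested, had -0.044 (limma adjusted p = 0.909). Of the untested, miR-142-5p was detected on 2 db/+ and 0 db/db arrays, and miR-150 and miR-155 on 1 and 0. The summed scaled signal of the leukocyte list was 424 to 546 in db/+ and 237 to 320.4 in db/db. Of 6 bile duct miRNAs 3 were tested and 2 rose, miR-31 (1.09; limma adjusted p = 0.0032) and miR-200b, where 9.45% of all tested miRNAs were called higher. The 3 untested ones were detected on no more db/db than db/+ arrays: miR-141 on 0 against 2, miR-200c on 1 against 1 and miR-429 on 1 against 2. The summed signal of the list was 124 to 139 in db/+ and 187 to 280.2 in db/db. Both sums hold the miRNAs called above, so they add nothing separate to those calls. They were apart between the strains, which miR-802 was not, and their part in the values of miR-802 was not tested. Of 5 pancreas miRNAs 1 was detected on any array, of 6 muscle miRNAs 0, and of 3 neural miRNAs on the array 1. Of the endothelial, erythroid and stellate lists, 2 of 2, 1 of 2 and 3 of 4 miRNAs on the array were tested and 0 passed in limma at the adjusted threshold.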

How the data were processed

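RNA of 8 livers was measured on 1-colour Agilent arrays. The intensity of each spot was deposited as Feature Extraction output (version 9.5.3.1 in the file headers, 9.3.5 in the series text), background-subtracted but unscaled. Detection and outlier flags (0 or 1) are also per the file headers. The authors deposited, besides, a normalized log score for 139 miRNAs and a table equal to the raw median intensity in all 12493 rows. The 4 animals per strain are per the series text; db/+ replicates 1 and 2 were numbered in accession order.

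Outlier spots (3.42% to 4.84% of 11540) were left out, and 0 spots were saturated. Spot means per probe were averaged over the probes of a miRNA. The scaling factor of an array is its median over 89 mouse miRNAs, those with a detection call on every array, set to a geometric mean of 1. Scaled signals were floored at 4.59 and put on the log2 scale. limma 3.58.1 (R 4.3.3) compared the strains, with no other term, over the 127 miRNAs with detection calls throughout 1 strain or both. All 127 had such calls throughout db/db. The p-values are two-sided with Benjamini-Hochberg adjustment. SAM was run with all 70 permutations. The procedure was tested on simulated data. Precision is limited by the number of arrays.

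miR-802 and the lists were chosen with earlier results of these data known. Named were miR-802, miR-122, the 5 most and 2 least like miRNAs, the 3 tested miRNAs of each list with the smallest p, and miRNAs that a count of 5 or fewer refers to, chosen after their values were seen. Sequences and gene neighbours are from RefSeq (GRCm38.p6). Figures were drawn with matplotlib 3.10.9.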

Additional observations from a re-analysis of the deposited data

How the results depend on the processing

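The difference of miR-802 did not pass in any of 29 alternatives (limma adjusted p from 0.147 to 0.993) and was positive in 26. With a lower floor, no detection filter, the well-above-background filter, SAM or slide column as a block, it was 0.52 by construction. In these it could not change sign. It was negative with normexp (-0.20; 21-base probe -0.35, 22-base probe -0.15; ratio to hepatocyte miRNAs -0.36; before scaling -0.50), with raw median intensity (-0.073; probes -0.18 and -0.049; ratio -0.25; before scaling -0.40) and without db/+ replicates 2 and 4 (-0.13; probes -0.20 and -0.093; ratio -0.25; before scaling -1.72). With normexp an offset of 50 was added before scaling, and the raw intensity of miR-802 on db/+ replicate 4 was 152.8 against a background-subtracted 4.997. With the mean of the negative controls subtracted, another check added after the data were seen, the difference was 0.70 (limma adjusted p = 0.310). Leaving out 1 array gave 0.29 to 0.77, 0.39 to 1.23 and 0.23 to 0.61 for the probes, 0.26 to 0.80 for the ratio and -0.50 to 1.51 before scaling. Scaling to the 75th percentile moved the median of all tested miRNAs from 0.15 to 0.024 and miR-802 to 0.40.

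The count of miRNAs past the threshold, 19 (12 higher, 7 lower), was 0 without scaling, 2 with normexp, 1 with raw median intensity, 3 with the authors' deposited log values, 12 with the higher floor of 25.9, 4 with no filter, 42 with array weights, 29 without db/+ replicates 2 and 4, and 10 (without db/db replicate 2) to 21 with 1 array left out, 12 without db/db replicate 3. The split was 6 higher and 8 lower with 75th-percentile scaling, 10 and 11 with cyclic loess, and 9 and 8 with quantile normalization. Titles number arrays 3 and 4 in both strains and nothing says that they pair: with the replicate block over these, 8 miRNAs passed and miR-802 had 0.46 (limma adjusted p = 0.593); the calls of miR-200b, miR-203, miR-125b-5p, miR-21, miR-378, miR-103, miR-107, miR-223 and miR-31 ended with the replicate block, and deviations of the same-numbered arrays correlated at 0.036 and 0.31. With slide column as a block miR-802 had the same 0.52 (adjusted p = 0.252). Not run were scaling to the median of all mouse miRNAs, at or below 0 on 3 arrays, and, for miR-802, the fit over miRNAs detected on all 8 arrays, to which it does not belong.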

Other observations

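A check for single arrays that stand apart from the other 3 of their strain covered 30 groups of 4 arrays. These were miR-802 on each scale and by probe, its ratio to hepatocyte miRNAs, the 7 miRNAs of like or opposite pattern, miR-122, the scaling factors and the authors' deposited values. In 0 of them was an array beyond Dixon's critical value. The low db/+ arrays of miR-802 were a pair, which such a check cannot single out.

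Without the 2 dim db/+ arrays, other miRNAs described beside miR-802 had other values too. let-7c then had a log2 fold change of 0.65 (limma adjusted p = 0.0137) in place of 0.40 (0.182), and miR-101a had -0.83 (0.0127) in place of -0.55 (0.160). miR-342-3p, the miRNA least like miR-802, had 0.13 (limma adjusted p = 0.579) in place of -0.54 (0.321). miR-30b, the most like, had -0.037 (limma adjusted p = 0.835) in place of 0.21 (0.411).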
